A study of Mus musculus with 19 samples.

Results

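The matrix proteases of primary mouse sarcomas were examined together with their tissue inhibitors. Of 48795 gene identifiers measured, 48349 with a symbol, 46 were members, found by symbol: 23 matrix metalloproteinases (Mmp genes), 19 ADAMTS proteases and 4 tissue inhibitors of metalloproteinases (Timp genes). They were followed over 19 bulk RNA sequencing libraries, each from 1 primary p53/MCA sarcoma, 11 from Rag2-/- mice, which lack mature T and B lymphocytes, and 8 from Rag2+/- mice. The study states an age of 6 to 10 weeks for the mice given its Cre adenovirus, and none for these mice. All tumors were started by injecting Adeno-sgp53-Cas9, an adenoviral vector for Cas9 editing of Trp53, into the gastrocnemius muscle. The carcinogen MCA (300 µg in sesame oil at 6 µg/µl) was then given in all of them, no therapy followed, and tumors were taken at 70 to 150 mm3. Both groups thus shared the Trp53 editing, the carcinogen and the muscle site, the labels name no batch, and each p-value measures the spread between these tumors.

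Matrix metalloproteinases are zinc enzymes that are made as inactive precursors and cut collagens, other matrix proteins and many signaling proteins. The ADAMTS enzymes are secreted relatives that process procollagens and cut proteoglycans such as aggrecan and versican. TIMP proteins block the active site of most of these enzymes, and TIMP2 also bridges MMP14 and the precursor of MMP2 at the cell surface, where MMP14 activates it. In sarcomas and other solid tumors the proteases come from the cancer cells, fibroblasts, macrophages and neutrophils alike, so a bulk library sums over them.

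Each value is the log2 of the upper-quartile normalized FPKM (fragments per kilobase of transcript, scaled to depth) after 0.1 had been added, so that a gene without fragments lies at -3.32. The depth, estimated from the size of 1 fragment in the low values, was 24.7 to 33.6 M fragments in 18 tumors and 5.23 M in the Rag2-/- tumor S41. The mean of 8 T cell markers reached from -2.26 to -1.20 in Rag2-/- tumors and from 0.10 to 2.64 in Rag2+/- tumors, without overlap. Rag2 itself is no check, since a value for the whole gene also counts what the mutant allele leaves, and its median was -0.16 in Rag2-/- and -1.13 in Rag2+/- tumors. Trp53 RNA was present in every tumor, from 3.47 to 6.35. The mean of 10 skeletal muscle genes ran from 4.43 to 11.79 in Rag2-/- tumors and from 6.66 to 13.13 in Rag2+/- tumors, and 5 tumors lay above the rest, at 11.79 or more, 1 of them Rag2-/- (S51) and 4 Rag2+/- (S52, S56, S59 and S60). In bulk tissue, fewer cells of a type and less RNA per cell cannot be told apart.

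Many of the members are neighbors in the genome. On chromosome 9 of GRCm38, 10 Mmp genes lie within 427 kb, from 7272514 to 7699585: Mmp13, Mmp12, Mmp1b, Mmp3, Mmp1a, Mmp10, Mmp8, Mmp27, Mmp20 and Mmp7. Adamts15 and Adamts8 also lie side by side on chromosome 9, 20109 bases apart, and Adamts1 and Adamts5 on chromosome 16, 53059 bases apart. RefSeq promoter sequences (GRCm38.p6) were matched for 32 of the 46 members. The AP-1 site, bound by Fos and Jun proteins and known from collagenase and stromelysin promoters, was searched for as TGANTCA, which reads the same on both strands. In the 250 bases before the start, 8 of the 10 cluster genes held it (Mmp10, Mmp12, Mmp13, Mmp1a, Mmp1b, Mmp20, Mmp3 and Mmp7), 0 of the 22 other members did, and 6.75% of all 32851 promoters did. The TATA box letters TATAAA, on either strand, stood in 7 of the 10 cluster promoters, 2 of the 22 others and 12.4% of all promoters. For the GC box letters GGGCGG, on either strand, the counts were 0 of 10, 16 of 22 and 32.7%. None of the 3 motifs overlapped another in the windows shown.

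The 100 bases before the start are shown for 5 cluster genes, which carry the motif or differ in it although they are neighbors, and for Mmp14 as a member from outside the cluster, with AP-1, TATA and GC box letters in capitals. All are from RefSeq and on the plus strand: chr9:7272414-7272513 for Mmp13, chr9:7445722-7445821 for Mmp3, chr9:7502242-7502341 for Mmp10, chr9:7347274-7347373 for Mmp12 (that of its starts with an AP-1 match), chr9:7558329-7558428 for Mmp8 and chr14:54431498-54431597 for Mmp14.
Mmp13: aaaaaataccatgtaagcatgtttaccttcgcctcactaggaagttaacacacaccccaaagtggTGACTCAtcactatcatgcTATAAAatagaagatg
Mmp3: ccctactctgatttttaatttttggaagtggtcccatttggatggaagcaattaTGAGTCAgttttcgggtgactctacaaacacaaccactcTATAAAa
Mmp10: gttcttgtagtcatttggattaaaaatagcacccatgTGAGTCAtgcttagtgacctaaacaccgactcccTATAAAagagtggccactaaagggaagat
Mmp12: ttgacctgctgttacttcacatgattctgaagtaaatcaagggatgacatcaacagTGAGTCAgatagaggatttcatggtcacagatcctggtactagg
Mmp8: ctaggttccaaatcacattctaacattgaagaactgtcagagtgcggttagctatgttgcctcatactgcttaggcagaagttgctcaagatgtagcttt
Mmp14: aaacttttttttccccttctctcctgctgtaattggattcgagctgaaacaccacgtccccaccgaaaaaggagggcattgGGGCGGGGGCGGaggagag
Counted back from the start, the AP-1 letters began at -35 in Mmp13, -46 in Mmp3, -63 in Mmp10 and -44 in Mmp12. A match is a match of letters and no measured binding. The members that held it had very different RNA levels in these tumors, from a mean of 5.54 for Mmp12 and 5.01 for Mmp3 to -2.74 for Mmp1a and the lowest value in every tumor for Mmp20.

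Levels of the 46 members differed widely, from the lowest value of the scale up to 8.51 in a single tumor. By mean log2 value over the 19 tumors, 7 members were above 5 (Timp2, Mmp14, Timp1, Mmp2, Mmp12, Timp3 and Mmp3), 11 lay between 2 and 5, 14 between 0 and 2 and 14 below 0. The first of them was Timp2 at 7.73, followed by Mmp14 at 7.35, Timp1 at 7.31 and Mmp2 at 7.22, 4 means that lie within 1 SD of each other over tumors (0.61 to 0.82). Next came Mmp12 at 5.54, Timp3 at 5.35 and Mmp3 at 5.01, whose order is not set by these data, since the SD of Mmp12 over tumors was 1.63. At the other end Mmp20, the enamel protease, was at the lowest value in all 19 tumors, Mmp21 in 18, Mmp7 (matrilysin, an epithelial enzyme) in 17, Mmp1a and Mmp1b in 12 each and Adamts13, the protease of von Willebrand factor, in 10.

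**Figure D1:**
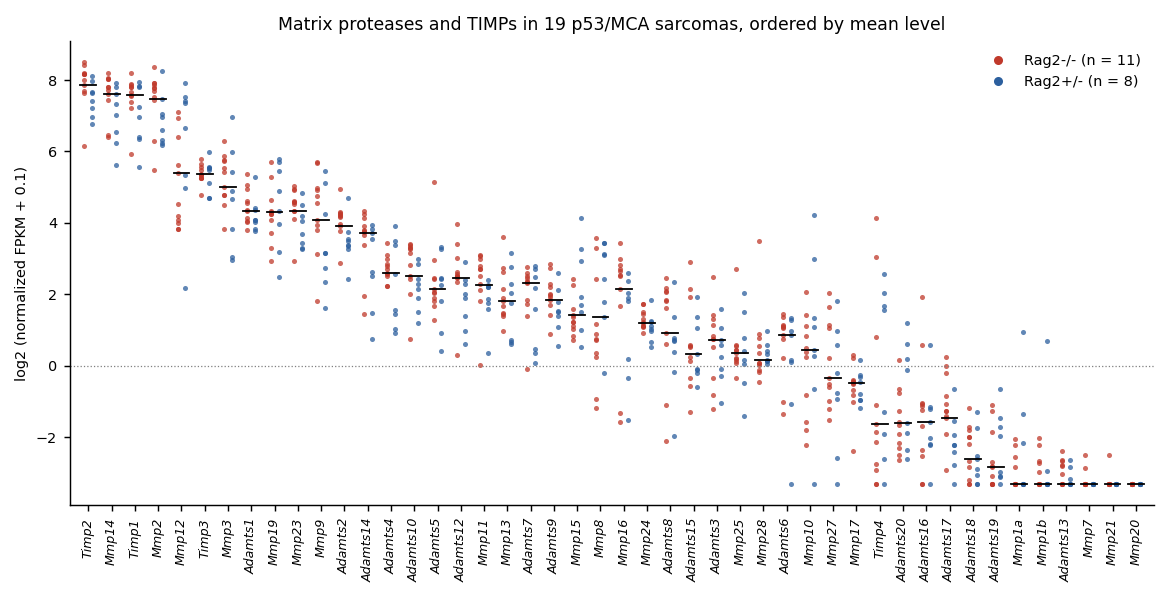
Each point is 1 tumor, the vertical axis gives the log2 of normalized FPKM plus 0.1, the bar is the median of all 19 tumors, and the dotted line at 0 is the mean level above which a gene was tested. The 46 members stand in the order of their means, from Timp2 at 7.73 to Mmp20 at -3.32, and red (Rag2-/-) and blue (Rag2+/-) points overlap in every member.

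Added up on the linear scale of normalized FPKM, the 23 Mmp genes came to 331, 625.5 and 769 (lowest, median and highest) in Rag2-/- tumors and to 230.2, 464 and 1019 in Rag2+/- tumors. Of this sum Mmp2 and Mmp14 had the largest median shares over the 19 tumors, 30.1% and 30.8%, each median taken by itself. By genotype these medians were 33.4% and 35.1% in Rag2-/- tumors and 23.7% and 23.7% in Rag2+/- tumors. The share of Mmp12 exceeded both in S52, S59 and S60 (29.3%, 39.2% and 36.7%). The share of Mmp12 had a median of 4.13% in Rag2-/- tumors (2.06% to 20.6%) and of 20.6% in Rag2+/- tumors (1.07% to 39.2%), and 4 of the 8 Rag2+/- tumors lay above the highest Rag2-/- share. The 4 Timp genes summed to 283, 546 and 634 in Rag2-/- tumors and 197, 376 and 562 in Rag2+/- tumors, with a median of 51.2% from Timp2, 40.5% from Timp1 and 8.92% from Timp3. The ratio of the Mmp sum to the Timp sum lay between 0.88 and 1.82 in all tumors, with a median of 1.15 in Rag2-/- tumors and 1.41 in Rag2+/- tumors. For the 19 ADAMTS genes the sum was smaller, 57.7, 96.9 and 153 in Rag2-/- tumors and 46.5, 70.4 and 112 in Rag2+/- tumors, and the median share of Adamts1, its member with the highest mean, was 25.9%.

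The members varied between tumors more widely than most genes. Their median SD was 0.90 on the log2 scale for the 32 members with a mean above 0, against 0.52 for all 12826 such genes. The widest was Mmp10, whose SD of 1.82 exceeded that of 96.2% of genes, then Mmp12 at 1.63, Mmp16 at 1.62 and Mmp8 at 1.54. Timp4, below the level tested, had an SD of 2.45. The steadiest were Mmp24 at 0.34 and Timp3 at 0.35, still above the SD of 23.8% and 24.7% of genes. These comparisons were not matched by level. A mean above 2 was reached by 18 of the 32 members and 9644 of the 12826 genes. The means of Mmp10, Mmp8 and Mmp16 were 0.34, 1.57 and 1.56.

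Whether tumors that grew without mature T and B cells carried other levels of these proteases was asked by comparing the groups. No member passed. With limma over all 19 tumors, 0 of the 32 tested members had an adjusted p under 0.05 (Benjamini-Hochberg, over 12826 genes), where 0.0312% of all genes did, the 4 genes Igkc, Igha, Cd2 and Tnfrsf18. At an unadjusted p under 0.05, 2 of 32 members were higher in Rag2-/- tumors, Adamts2 and Mmp23, against a background of 6.74%, and 0 were lower, against 9.56%. Of the 32 members, 27 had a higher mean in Rag2-/- tumors (84.4%, against 56.2% of all genes tested), with a median difference of 0.44 against 0.062 for all genes. Those with a lower mean in Rag2-/- tumors were Mmp8, Mmp12, Mmp10, Mmp15 and Mmp19. Values of the groups overlapped for all 46 members, and 0.0156% of genes tested did not overlap.

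That count moved with the tumors included. The study plotted 15 of these tumors, 8 Rag2-/- and 7 Rag2+/-, without S41, S46, S51 and S56. Within those 15, 11 of 32 members were higher in Rag2-/- tumors at an unadjusted p under 0.05, against 11% of genes: Mmp2, Mmp11, Mmp14, Mmp16, Mmp23, Adamts2, Adamts8, Adamts10, Adamts12, Adamts14 and Timp2. One was lower, Mmp19, against 11.1%, and again 0 passed after adjustment (0.116% of genes did), the smallest adjusted p being 0.217. Leaving out S51 alone gave 9 higher and 2 lower, against 15.9% and 16.5%, and 0 adjusted, against 0.0545%, leaving out the Rag2+/- tumor S55 gave 7 and 1, against 9.29% and 13.3%. Without S46 the counts were 5 and 0, against 7.21% and 9.16%, and without the Rag2+/- tumor S53 1 and 3, against 10.8% and 14.3%. With the skeletal muscle mean as a covariate neither Adamts2 (0.51) nor Mmp23 (0.23) had an unadjusted p under 0.05, and another member did, Mmp24 (0.42, adjusted p = 0.999, limma), against 2.49% of genes higher and 1.62% lower, 21 of 32 differences were above 0, the members' median was 0.12 against -0.018 for all genes, and 0 passed adjustment, against 0.0156%. With both the 15 tumors and that covariate 7 members were higher at an unadjusted p under 0.05, against 3.2% of genes, namely Adamts2, Adamts10, Mmp2, Mmp9, Mmp11, Mmp24 and Timp2. None was lower, against 2.64%, and 0 passed adjustment, the lowest adjusted p being 0.672. Taking Xist as a covariate for sex, which the labels do not give, left 0 in either direction, against 3.9% higher and 3.62% lower, and 0 adjusted, against 0.0234%. The differences of Adamts2 and Mmp23 were then 0.52 and 0.30 (adjusted p = 0.617 and 0.620, limma), 27 of 32 differences were above 0, and their median was 0.24 against 0.027 for all genes. Without a filter on low values 3 of 45 members were higher, Adamts17 being added, against 5.23%, 0 were lower, against 6.76%, and 0 passed adjustment, against 0.136%. Xist was above a log2 value of 0 in 7 of 11 Rag2-/- and 3 of 8 Rag2+/- tumors. The parts of muscle content and sex in the differences were not tested beyond these fits.

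**Figure D2:**
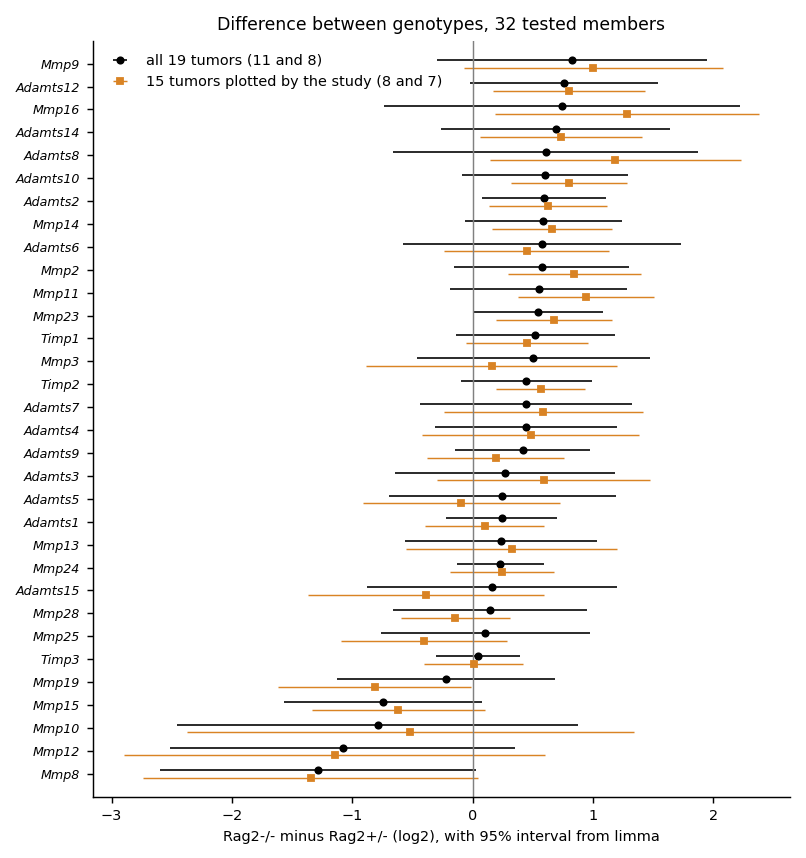
For each of the 32 tested members, the horizontal axis gives the mean log2 value of Rag2-/- minus Rag2+/- tumors with its 95% interval from limma, in black over all 19 tumors and in orange over the 15 tumors that the study plotted. In the 19 tumors only the intervals of Adamts2 (0.59) and Mmp23 (0.54) lie above 0, and in the 15 tumors 11 lie above and that of Mmp19 (-0.81) below.

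Among the gelatinases and their activators, the trio that makes active MMP2 was abundant in every tumor. Mmp2, gelatinase A, was at 5.48, 7.77 and 8.37 (lowest, median and highest) in Rag2-/- tumors and at 6.17, 6.79 and 8.26 in Rag2+/- tumors, a mean difference of 0.57 (SE 0.35, adjusted p = 0.365, limma). Rag2-/- tumors sat mostly in the upper part of this range, with S46 and S51 far below the others. Mmp14, the membrane-type protease that activates it, was at 6.41, 7.80 and 8.20 in Rag2-/- tumors and at 5.62, 7.19 and 7.91 in Rag2+/- tumors, a difference of 0.59 (SE 0.31, adjusted p = 0.330, limma). Timp2, which anchors the precursor to MMP14, was at 6.16, 8.17 and 8.51 against 6.77, 7.53 and 8.11, a difference of 0.45 (SE 0.26, adjusted p = 0.352, limma). For all 3 the ranges of the genotypes overlapped. S51 was the lowest Rag2-/- tumor of each, and without it the differences were 0.77, 0.70 and 0.62 (adjusted p = 0.0994, 0.121 and 0.0941, limma). With the muscle covariate they were 0.25, 0.11 and 0.14 for Mmp2, Mmp14 and Timp2 (adjusted p = 0.999 for each, limma), with Xist 0.33, 0.35 and 0.28, and that of Mmp14 was 0.39 without S56. In the 15 tumors the 3 differences were 0.85, 0.66 and 0.57. With the muscle covariate in the 15 tumors they were 0.77, 0.34 and 0.51 (adjusted p = 0.741, 0.893 and 0.744, limma). Mmp9, gelatinase B, an enzyme of neutrophils, macrophages and osteoclasts, was lower and more spread, from 1.61 to 5.71, with medians of 4.55 in Rag2-/- and 3.17 in Rag2+/- tumors (difference 0.83, SE 0.54, adjusted p = 0.387, limma).

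The other membrane-type genes were far lower than Mmp14. Mmp16, a relative of Mmp14, was at -1.57, 2.54 and 3.42 in Rag2-/- tumors and at -1.53, 1.85 and 2.60 in Rag2+/- tumors, a difference of 0.75 (SE 0.71, adjusted p = 0.525, limma). Its tumors lay either between 1.68 and 3.42 or at 0.18 and lower, with S46 and S51 as the low Rag2-/- tumors. The difference was 0.37 without S59, 1.28 in the 15 tumors, 0.15 with Xist and -0.19 with the muscle covariate. Mmp15, Mmp24 and Mmp25 had means of 1.69, 1.21 and 0.44, and Mmp17 of -0.60, below the level tested. Mmp15 was highest in the Rag2+/- tumor S56, at 4.14, and its difference was -0.74 (SE 0.39, adjusted p = 0.327, limma), or -0.056 with the muscle covariate and -0.42 with Xist.

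Of the inhibitors, Timp1, a secreted TIMP that many cytokines induce, was at 5.92, 7.66 and 8.20 in Rag2-/- tumors and at 5.58, 7.11 and 7.95 in Rag2+/- tumors, a difference of 0.52 (SE 0.32, adjusted p = 0.365, limma). S46 was the lowest Rag2-/- tumor, and the groups overlapped over most of their range. The difference was 0.32 without S56, 0.15 with the muscle covariate and 0.23 with Xist. Timp3, which binds to the matrix and also inhibits ADAM and ADAMTS enzymes, was nearly level across tumors, at 4.78, 5.35 and 5.79 against 4.69, 5.50 and 6.00. Its difference was 0.045 with a 95% interval from -0.30 to 0.39 (adjusted p = 0.882, limma), and 1733 of its 8144 exonic bases overlap Syn3 on the other strand. Timp4, an inhibitor typical of fat, heart and muscle, behaved otherwise: at -3.32, -1.85 and 4.13 in Rag2-/- tumors and at -3.32, 0.13 and 2.57 in Rag2+/- tumors it ranged from no fragments to an estimated 2354. It was below the level tested, and its mean difference was -0.84 (adjusted p = 0.686, limma, no filter on low values). That value ranged from -1.35 to -0.45 with single tumors left out (-1.35 without S46, -1.29 without S53, -0.53 without S59 and -0.45 without S56), and was -0.31 with a pseudocount of 1 and -1.52 in the 15 tumors.

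Within the chromosome 9 cluster the genes took very different levels. Mmp12, macrophage metalloelastase, was at 3.83, 4.54 and 7.12 in Rag2-/- tumors and at 2.19, 6.997 and 7.91 in Rag2+/- tumors, a difference of -1.08 (SE 0.68, adjusted p = 0.382, limma). Of the Rag2-/- tumors 6 lay between 3.83 and 4.54 and of the Rag2+/- tumors 5 between 6.65 and 7.91, while the lowest value of all, 2.19, belonged to the Rag2+/- tumor S53. Without S53 the difference was -1.65 and its unadjusted p was under 0.05, with the lowest adjusted p of the members at 0.160 (limma). Mmp8, the neutrophil collagenase, was at -1.19, 0.76 and 3.59 against -0.20, 2.77 and 3.44, a difference of -1.28 (SE 0.63, adjusted p = 0.309, limma). Its values rested on an estimated 3.9 to 699 fragments, and the Rag2-/- tumors S42 and S51 were among the highest of all. With the muscle covariate the differences of Mmp12 and Mmp8 were -0.26 and -0.47 (adjusted p = 0.999 for each, limma).

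The stromelysins, which cut proteoglycans and activate other MMP precursors, stood apart from each other. Mmp3 was at 3.83, 5.44 and 6.28 in Rag2-/- tumors and at 2.97, 4.78 and 6.98 in Rag2+/- tumors, a difference of 0.50 (SE 0.46, adjusted p = 0.513, limma), which was 0.25 without S58, 0.26 without S56, 0.83 without S54 and 0.16 in the 15 tumors. Mmp10, its closest relative, was at -2.22, 0.37 and 2.08 against -3.32, 0.77 and 4.22, a difference of -0.79 (SE 0.80, adjusted p = 0.553, limma), which was -0.30 without S54, -0.47 without S55, -1.38 without S60, -0.52 in the 15 tumors and -1.32 with Xist. Of the 50-base words of these transcripts, 8.39% for Mmp3 and 8.37% for Mmp10 also occur in other genes, chiefly in each other, so a part of the low Mmp10 values may be uncertain. Mmp11, stromelysin 3, which lies outside the cluster, had a mean of 2.15 and a difference of 0.55 (SE 0.35, adjusted p = 0.386, limma). That was 0.10 with the muscle covariate, 0.33 with Xist, 0.95 in the 15 tumors and 0.65 in those with the muscle covariate. Of the other collagenases Mmp13, the main interstitial collagenase of mice, had a mean of 1.88 and a range from 0.61 to 3.61. Mmp1a and Mmp1b, which share 8.15% and 11.8% of their words with other genes, were at or near the lowest value in most tumors. The Rag2+/- tumor S54 was the exception, named after its values were seen, with Mmp1a at 0.96 (next tumor -1.36), Mmp1b at 0.70 (next -2.04), Mmp10 at 4.22 (next S55) and Mmp3 at 6.98 (next 6.28), the highest of the 19 tumors for each, and Mmp13 at 3.16, the next to highest. Their neighbors Mmp12 and Mmp8 ranked 7 and 5 in that tumor.

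Among the remaining MMPs, Mmp23 and Mmp19 were the highest. Mmp23, a membrane-bound MMP with a toxin-like domain, was at 2.94, 4.58 and 5.04 in Rag2-/- tumors and at 3.26, 3.88 and 4.82 in Rag2+/- tumors, a difference of 0.54 (SE 0.26, adjusted p = 0.306, unadjusted 0.0495, limma). That is 1.45-fold on the scale of FPKM plus 0.1, and 10 of 11 Rag2-/- tumors lay above the Rag2+/- median, S51 being the exception. With single tumors left out, the difference of Mmp23 ran from 0.45 without S58 to 0.69 without S51. Its unadjusted p (limma) was then under 0.05 only without S46, S51, S52, S54 or S55. Mmp19, a secreted protease found in macrophages and vessels, was at 2.94, 4.25 and 5.69 against 2.48, 4.61 and 5.79, a difference of -0.22 (SE 0.43, adjusted p = 0.763, limma), and 789 of its 3533 exonic bases overlap Tmem198b on the other strand. With single tumors left out that difference ranged from -0.51 without S56 to -0.032 without S59, and it was -0.81 in the 15 tumors, 0.13 with the muscle covariate and -0.071 with Xist. Mmp28, epilysin, stayed between -0.47 and 0.97 except in S46, where it reached 3.49, and Mmp27 had a mean of -0.18.

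**Figure D3:**
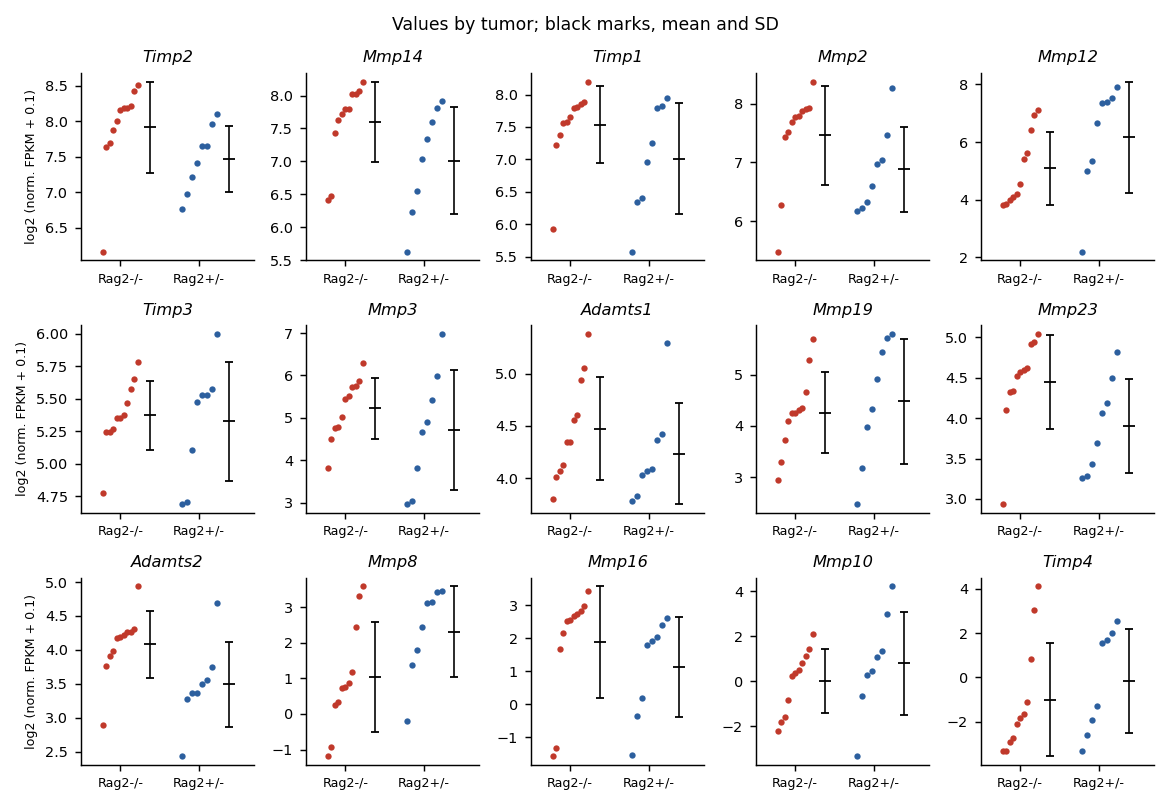
For the 15 members given in full, each point is 1 tumor in ascending order within its genotype, the vertical axis is the log2 of normalized FPKM plus 0.1, and black marks give the mean and SD (n = 11 and n = 8). Rag2-/- points of Timp2, Mmp14, Mmp2 and Mmp16 form a high group with 1 or 2 tumors far below, and Mmp10, Mmp12 and Timp4 spread over 5 log2 units or more.

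The procollagen N-proteinases, which trim the amino end of fibrillar procollagens, were led by Adamts2. It was at 2.89, 4.19 and 4.94 in Rag2-/- tumors and at 2.43, 3.43 and 4.69 in Rag2+/- tumors, a difference of 0.59 (SE 0.25, adjusted p = 0.302, unadjusted 0.0265, limma). That is 1.51-fold with a 95% interval from 1.05 to 2.16, not adjusted for the 32 members tested, and the lowest p among them. Without S58 the difference was 0.44 and its unadjusted p (limma) was no longer under 0.05. Without any other single tumor it stayed under 0.05. Adamts14 had a mean of 3.20 and a difference of 0.69 (SE 0.46, adjusted p = 0.394, limma). That was -0.050 with the muscle covariate, 0.30 with Xist, 0.74 in the 15 tumors and 0.19 in those with the muscle covariate. Adamts3 had a mean of 0.51. Of the proteoglycan-cleaving group, Adamts1 was the highest, at 3.80, 4.35 and 5.38 against 3.78, 4.08 and 5.29, a difference of 0.24 (SE 0.22, adjusted p = 0.510, limma), which was 0.15 without S46, 0.39 without S53, 0.10 in the 15 tumors and 0.061 with the muscle covariate. Its 2 highest tumors, S46 and S53, were of different genotypes. Adamts4 and Adamts5, the main aggrecanases, had means of 2.54 and 2.25, Adamts9 of 1.81, Adamts8 of 0.87 and Adamts15 of 0.55, while Adamts20 (-1.26) was below the level tested. Adamts5 reached 5.16 in S46, with the next tumor at 3.31.

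Of the other ADAMTS genes, Adamts10, a partner of fibrillin, Adamts12 and Adamts7, both able to cut cartilage oligomeric matrix protein, and Adamts6 had means of 2.51, 2.25, 1.84 and 0.37. Adamts12 and Adamts10 had differences of 0.76 (SE 0.38, adjusted p = 0.311, limma) and 0.60 (SE 0.33, adjusted p = 0.337, limma). These were 0.25 and 0.041 with the muscle covariate, 0.80 and 0.80 in the 15 tumors, and 0.53 and 0.45 in those with the covariate. Adamts13, Adamts16, Adamts17, Adamts18 and Adamts19 were below the level tested, with means from -3.06 for Adamts13 to -1.49 for Adamts16. Adamts17, at -2.91, -1.27 and 0.25 in Rag2-/- tumors and -3.32, -2.23 and -0.66 in Rag2+/- tumors, had the largest difference among them, 1.03 (adjusted p = 0.403, unadjusted 0.0178, limma, no filter on low values), on at most an estimated 179 fragments.

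Many members followed the muscle content of the tumor, most of them in the opposite direction. Against the mean of the 10 skeletal muscle genes, 12 of 32 members had a negative correlation over the 19 tumors with an adjusted p under 0.05 (permutation test, Benjamini-Hochberg over 12826 genes), where 33.6% of genes did. The strongest were Adamts7 (r = -0.79, Spearman rho = -0.67, permutation p = 8e-05 and 0.00209), Adamts10 (r = -0.78, rho = -0.70, permutation p = 9e-05 and 0.00116), Adamts14 (r = -0.73, rho = -0.70, permutation p = 3.8e-04 and 0.00107) and Mmp14 (r = -0.72, rho = -0.53, permutation p = 4.4e-04 and 0.0230). The others were Adamts4, Adamts6, Adamts12, Mmp11, Mmp16, Mmp23, Timp1 and Timp2. A positive one was seen for 3 members, where 26.2% of genes had one: Mmp15 (r = 0.80, rho = 0.74, permutation p = 4e-05 and 4.4e-04), Mmp8 (r = 0.64, rho = 0.60, permutation p = 0.00332 and 0.00738) and Mmp12 (r = 0.58, rho = 0.63, permutation p = 0.0101 and 0.00454). As shares of the 32 members these counts are close to the background for negative and under it for positive correlations. Without the 2 tumors farthest from the median, S48 and S56, the same 15 coefficients kept their sign and ran from -0.78 to -0.48 and from 0.67 to 0.75. All 15 also kept their sign within each genotype, from -0.70 to -0.10 and 0.41 to 0.60 in Rag2-/- tumors and from -0.91 to -0.32 and 0.53 to 0.89 in Rag2+/- tumors, Timp1 having the weakest value, -0.10, in Rag2-/- tumors. Mmp13, Mmp3 and Mmp10 had coefficients between -0.073 and -0.041 over all tumors. By genotype those of Mmp3 were 0.82 in Rag2-/- and -0.35 in Rag2+/- tumors, those of Mmp10 0.19 and -0.50 and those of Mmp13 0.14 and -0.13, and these differences were not tested.

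**Figure D4:**
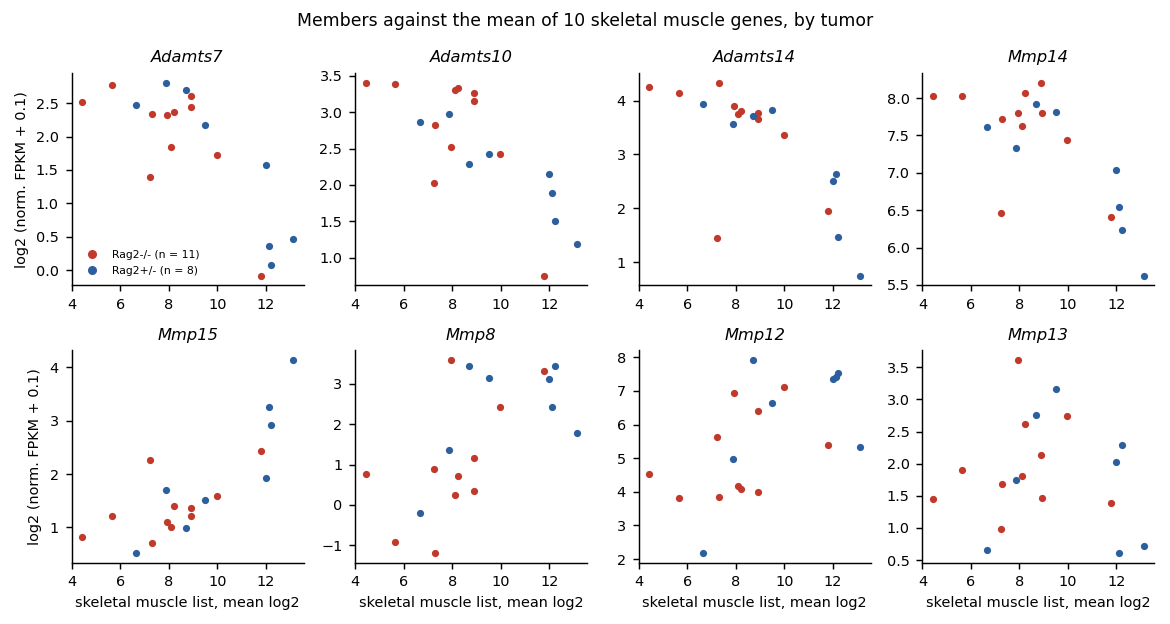
Each panel plots 1 member, in log2 of normalized FPKM plus 0.1, against the mean log2 value of 10 skeletal muscle genes, with 1 point per tumor in red for Rag2-/- (n = 11) and blue for Rag2+/- (n = 8). Adamts7, Adamts10, Adamts14 and Mmp14 are low in the 5 tumors at 11.79 or more, Mmp15 is high there, and Mmp13 (r = -0.072) shows no slope.

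Members were also paired with each other and with marker lists of cell types known to make them, 25 pairs in all with p-values adjusted over the 25. Mmp2 moved with Timp2 and with Mmp14, while Mmp14 and Timp2 were not paired with each other. It had a Pearson r of 0.904 with Timp2 (Spearman rho = 0.863, permutation p = 1e-05 for each, the smallest the permutations can give, adjusted p = 1.25e-04 for each). With Mmp14 its r was 0.866 (rho = 0.877, permutation p = 3e-05 and 1e-05, adjusted p = 2.5e-04 and 1.25e-04). Both held without the 2 farthest tumors (r = 0.858 and 0.878), within Rag2-/- tumors (0.90 and 0.936, permutation p = 3.7e-04 and 5.9e-04) and within Rag2+/- tumors (0.874 and 0.778, exact permutation p = 0.0035 and 0.0208). Of the 12825 other genes tested, 5 had a higher r with Mmp2 than Timp2 did and 38 a higher r than Mmp14. After a straight line on the muscle mean had been taken off each gene, an added description, r was 0.873 and 0.846.

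Mmp2 also followed the fibroblast list (10 genes, among them Pdgfra, Dcn and Col1a1; r = 0.834, rho = 0.774, permutation p = 1e-05 and 1.3e-04, adjusted p = 1.25e-04 and 5.42e-04). Adamts12 (r = 0.751, rho = 0.802), Mmp14 (r = 0.704, rho = 0.553) and Adamts2 (r = 0.682, rho = 0.818) did so too, with adjusted permutation p of 0.0016 and 5.42e-04, 0.00262 and 0.0488, and 0.00525 and 3.12e-04 (raw p = 3.2e-04 and 1.2e-04, 6.3e-04 and 0.0156, and 0.00189 and 5e-05). Without the 2 farthest tumors, S51 and S55, these 4 coefficients were 0.75, 0.68, 0.73 and 0.55. Within Rag2-/- tumors they were 0.83, 0.725, 0.623 and 0.759, with Spearman's rho at 0.555, 0.318, 0.2 and 0.682 (permutation p of r, unadjusted, 0.00869, 0.0604, 0.067 and 0.0351). Within Rag2+/- tumors they were 0.861, 0.817, 0.776 and 0.62 (exact permutation p, unadjusted, 0.0093, 0.00923, 0.017 and 0.114). Adamts5 did not follow the list (r = -0.183, rho = -0.058, adjusted permutation p = 0.503 and 0.849). The fibroblast list itself differed little between genotypes, at 5.34, 6.79 and 7.13 in Rag2-/- tumors and 5.88, 6.49 and 7.72 in Rag2+/- tumors. It was lowest in S51, S56, S59 and S60 (5.34, 5.88, 6.01 and 6.31), all among the 5 tumors highest in muscle genes. The fifth, S52, was at 6.66. No muscle line was taken off the pairs with this list. The parts of muscle content, fibroblasts and sarcoma cells in them were not tested.

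Timp4 followed the adipocyte list (r = 0.811, rho = 0.835, permutation p = 6e-05 and 3e-05, adjusted p = 3.75e-04 and 2.5e-04) and the skeletal muscle list (r = 0.703, rho = 0.684, permutation p = 7.4e-04 and 0.00171, adjusted p = 0.00264 and 0.00611). Without the 2 farthest tumors r was 0.762 and 0.652. Within Rag2-/- tumors the coefficients were 0.943 and 0.521, and within Rag2+/- tumors 0.628 and 0.982 (exact permutation p = 0.105 and 2.48e-04). Its highest tumor, S46 at 4.13, had the highest adipocyte mean of all, 8.65, and was also the highest for Adamts1, Adamts2, Adamts5, Adamts9, Adamts12, Adamts15, Mmp27 and Mmp28. The adipocyte mean lay between -2.17 and 5.99 in the other tumors. S46 was also the highest tumor for macrophage genes (7.48, next 6.21), endothelial genes (4.68, next 4.21) and osteoclast genes (1.41, next 1.39), and the part of these cells in its values was not tested.

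For myeloid cells the pairs were weaker. Mmp19 followed the macrophage list by Pearson's r (0.65, permutation p = 0.00115, adjusted p = 0.00359) and not past the threshold by Spearman's rho (0.521, permutation p = 0.0231, adjusted p = 0.0642). Without S46 and S56, the tumors farthest out in macrophage genes, r was 0.454. In the 15 tumors it was 0.486 (permutation p = 0.068, adjusted p = 0.131). Within Rag2-/- tumors it was 0.667 (rho = 0.364, permutation p of r = 0.0232, unadjusted). Within Rag2+/- tumors it was 0.798 (rho = 0.69, exact permutation p of r = 0.00667, unadjusted). Mmp12 had r = 0.250 with that list over 19 tumors (rho = 0.468, adjusted permutation p = 0.395 and 0.0925) and 0.659 in the 15 tumors (permutation p = 0.00907, adjusted p = 0.0252). Against the neutrophil list Mmp8 had r = 0.341, Mmp9 -0.002 and Mmp25, leukolysin, 0.036, with adjusted permutation p of 0.203, 0.992 and 0.919. Without the 2 farthest tumors, S47 and S53, these coefficients were 0.222, -0.52 and -0.055. In the 15 tumors they were 0.368, 0.302 and -0.067 (adjusted permutation p = 0.281, 0.359 and 0.802). Within genotypes that of Mmp8 was 0.608 in Rag2-/- tumors (rho = 0.718, permutation p = 0.0451, unadjusted) and 0.508 in Rag2+/- tumors (exact permutation p = 0.198, unadjusted), that of Mmp9 -0.167 and -0.082 and that of Mmp25 0.427 and -0.363. Of the 8 neutrophil markers S100a8, S100a9, Csf3r and Retnlg were above the lowest value in all 19 tumors (medians 4.22, 4.804, 2.75 and 1.32), Cxcr2, Camp and Ngp were at it in 1 tumor each and Ly6g in 8.

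Pairs of neighbors in the genome differed in sign and size. Mmp3 had r = 0.457 with Mmp10 (rho = 0.468, adjusted permutation p = 0.102 and 0.0925) and 0.179 without S54 and S60. In the 15 plotted tumors it was 0.736 (permutation p = 0.0026, adjusted p = 0.00929). Over all tumors of a genotype it was -0.002 in Rag2-/- and 0.786 in Rag2+/- tumors (exact permutation p = 0.0203), a difference that was not tested. Mmp13 had r = 0.442 with Mmp3 and 0.382 with Mmp12 (adjusted permutation p = 0.105 and 0.155). Adamts8 and Adamts15 ran in opposite directions (r = -0.615, permutation p = 0.00515, adjusted p = 0.0129, rho = -0.435, permutation p = 0.0635, adjusted p = 0.113), but r was -0.336 without S46 and S51, so it rests on those tumors. Adamts1 and Adamts5 had r = 0.373 (adjusted permutation p = 0.160), which was -0.171 without S46 and S58. The remaining 6 pairs (Timp1 with Mmp3 and Mmp9, Adamts1 and Mmp15 with endothelial genes, Mmp9 with osteoclast genes and Mmp13 with bone and cartilage genes) had adjusted permutation p from 0.056 to 0.915.

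**Figure D5:**
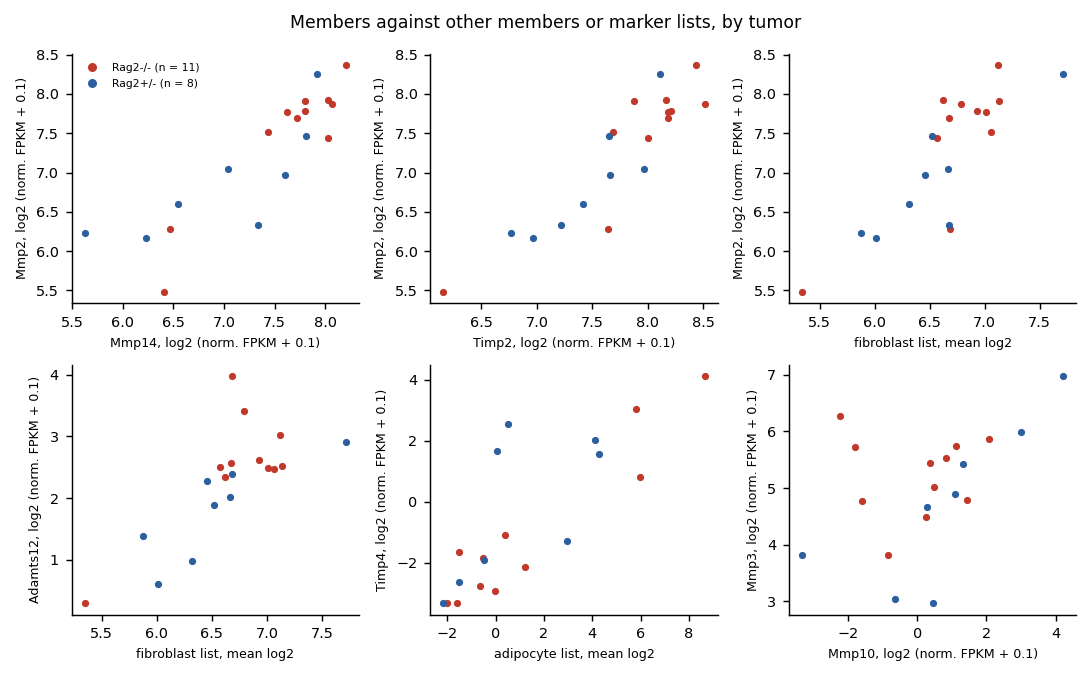
Each panel plots 1 member against another member or the mean of a marker list, both on the log2 scale, with 1 point per tumor in red for Rag2-/- (n = 11) and blue for Rag2+/- (n = 8). Mmp2 rises with Mmp14 (r = 0.866), Timp2 (0.904) and the fibroblast list (0.834), Adamts12 with the fibroblast list (0.751) and Timp4 with the adipocyte list (0.811), whereas Mmp3 and Mmp10 (0.457) scatter.

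Among genes around the proteases 0 passed adjustment (limma), and the counts at an unadjusted p under 0.05 in the 3 lists, 1, 2 and 1 higher and 1, 1 and 0 lower, are about at the shares over all genes of 6.74% and 9.56%. Of the activators and other inhibitors (17 of 21 tested), Lrp1, the receptor that takes up proteases and their inhibitors, was higher in Rag2-/- tumors at an unadjusted p of 0.00521 (difference 0.74, adjusted p = 0.302, limma), and Serpine2, protease nexin 1, was lower (-0.95, unadjusted p = 0.0372, adjusted p = 0.302, limma). Of the substrates and binding partners (21 of 27 tested), Vcan, the versican gene and an ADAMTS substrate (0.79, unadjusted p = 0.0138, limma), and Adamtsl4 (0.42, unadjusted p = 0.0416, limma) were higher and Adamtsl5 (-0.87, unadjusted p = 0.0101, limma) was lower, each with an adjusted p of 0.302 to 0.305. Of the inducers (19 of 20 tested), Il1b, a cytokine that induces several Mmp genes, was higher (0.76, unadjusted p = 0.0344, adjusted p = 0.302, limma), and none of the Fos and Jun genes that bind AP-1 sites reached an unadjusted p under 0.05. The median differences of the 3 lists were 0.17, 0.31 and 0.087, against 0.062 for all genes.

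In the same fit, marker lists of the cells that could carry the members gave 8 of 10 skeletal muscle genes lower in Rag2-/- tumors at an unadjusted p under 0.05 (median difference -2.22), 3 of 3 tested T cell genes lower (Cd2 past adjustment), 3 of 6 NK cell genes higher, 1 of 10 macrophage genes higher (Fcgr1) and 1 of 8 endothelial genes lower (Pecam1). Over all genes 6.74% were higher and 9.56% lower, so the macrophage and endothelial counts are about at the background. The lists for fibroblasts (10 tested), neutrophils (6), mast cells (6), adipocytes (5), osteoclasts (3), epithelial cells (2) and bone and cartilage (1) gave 0 in either direction. In that order their median differences were 0.22, 0.95, -0.067, 0.24, 0.295, -1.51 and 0.54, against 0.062 for all genes.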

How the data were processed

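Bulk RNA of 19 primary p53/MCA sarcomas was sequenced in 150 base pair, paired-end configuration (NEBNext Ultra II libraries; whether counting used strand is not given in the sources used here). The deposited values are log2 of FPKM: reads had been mapped by the authors with Omicsoft's aligner to mouse B38, Ensembl R86 genes quantified as FPKM, scaled to the upper quartile and put on the log2 scale. The lowest value, -3.32, shows that 0.1 had been added. The submitters' processing notes also name Trimmomatic 0.36, STAR 5.5.4b and HTSeq. Symbols were joined by Ensembl identifier, and members were found by symbol.

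These are normalized values, so no count test was used. Genes with a mean log2 value above 0 (12826 genes, 32 members) were compared over all 19 tumors with Benjamini-Hochberg adjustment by limma 3.58.1 (R 4.3.3; variance trend on), with members fitted among all genes. Correlations used Pearson's r and Spearman's rho with 100000 permutations, or all of them for 8 tumors. Depth was estimated from the step of 1 fragment in genes with 1 transcript of GENCODE vM21, the nearest annotation given. There, 74.8% to 88.3% of low values were whole within 0.05 fragments. Other work used Python 3.11.15, numpy 2.4.6, pandas 2.3.3, scipy 1.17.1 and matplotlib 3.10.9.

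The members, lists, pairs and tests were chosen with earlier results of these data known. Full values were given for members tested with an unadjusted p under 0.05, the 10 with the highest mean and the 5 with the largest SD. All members are named. Of the pathway lists, genes with an unadjusted p under 0.05 are named, at most 4 a list. S54 and its genes, the genes highest in S46 and the neutrophil markers were named after their values were seen. Alternatives were the 15 plotted tumors, each tumor left out, pseudocounts of 1 and 0.01, no filter or a mean above 2, quantile normalization, no trend, and the skeletal muscle mean or Xist as a covariate. Added after seeing the data were the 15 tumors with that covariate, the muscle correlations of all genes and the removal of the muscle line from 2 pairs. Protein sequences and read counts were not used here.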

Additional observations from a re-analysis of the deposited data

Results flagged for a closer look

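Within the 8 Rag2+/- tumors, 33 sets of values were checked for a tumor far from the rest, and chance alone flags about 1 in 20. Adamts1 was at 5.29 in S53, with the next tumor at 4.43, a gap of 0.572 of the whole range. Mmp11 was at 0.35 in S60, with the next tumor at 1.58, a gap of 0.601 of the range. The groups of 11 Rag2-/- tumors were not checked in this way.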

How the results depend on the processing

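No member passed adjustment in any fit run, those with the 15 tumors, each tumor left out, other pseudocounts, filters, normalization, variance model or covariates. The number of genes with an adjusted p under 0.05 (limma), 4 in all 19 tumors, was 15 in the 15 plotted tumors, 34 without a filter, 0 with a mean above 2 (1676 at an unadjusted p under 0.05), 2 with the muscle covariate, 8 with both the 15 tumors and that covariate, and 3 to 7 with single tumors left out (7 without S51 or S56). Members higher in Rag2-/- tumors at an unadjusted p under 0.05, 2 in all 19 tumors, numbered 11 in the 15 tumors, 7 in those with the muscle covariate, 1 with that covariate in all tumors, 0 with Xist, 1 without the trend, and 1 to 9 with single tumors left out. Members lower, 0 in all 19 tumors, numbered 1 in the 15 tumors, 1 after quantile normalization and 0 to 3 with single tumors left out. The cause was not tested. Of the 32 tested members, 8 changed the sign of their difference with the muscle covariate (Adamts3, Adamts4, Adamts6, Adamts7, Adamts8, Adamts14, Mmp16 and Mmp19), 4 in the 15 tumors (Adamts5, Adamts15, Mmp25 and Mmp28), 7 in the 15 tumors with it, 1 without S51 (Mmp25) and 0 with Xist. Among the 15 members given in full these were Mmp16 (-0.19) and Mmp19 (0.13) with the muscle covariate, Adamts1 (-0.057) and Mmp12 (0.019) in the 15 tumors with it, and also Timp3, between -0.046 and 0.14 with single tumors left out, without S54 (-0.044) or S58 (-0.046). No paired analysis was possible because no label ties a tumor of one genotype to a tumor of the other. The depth of S41 limits its low values.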
